A study of Mus musculus with 6 samples.

Results

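Cassette exons whose length is not a multiple of 3, and which therefore shift the reading frame when left out alone from coding sequence, were examined in CD4+ T cells after deletion of the gene of the U5 snRNP protein CD2BP2/U5-52K. They were taken from the deposited table of skipped exon events as events with an exon of 31 to under 400 bases, both flanking introns of 1000 to under 10000 bases, a mean Control inclusion of 10 to 95% and, in each condition, 20 or more reads on average. Inclusion is computed per event from reads scaled by length, as the share that include the exon against those that join the flanking exons of the event without it. The same exon can thus have different values in different events. The rule chose 934 of the 39173 events with enough reads, in 848 of 30649 exons and 694 of 7955 genes. Control inclusion and depth chose the members, so these are described without a test, and the same Control values are one side of every difference below.

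The 3 cKO mice (libraries KO_7.8, KO_9.10, KO_11.12) were U5-52K f/f and carried the CD4-Cre transgene. The 3 Control libraries mix genotypes, since for CTRL_5.6 the mouse was U5-52K f/f and CD4-Cre-, whereas those of CTRL_1.2 and CTRL_3.4 were U5-52K wt/f with the CD4-Cre transgene. All were CD4+ T cells sorted from spleen and lymph nodes, with no treatment named in the labels, which give neither age nor sex. CD4-Cre becomes active in thymocytes that express both CD4 and CD8, so it acts before these cells leave the thymus, and in the CD8+ lineage as well. The splicing table holds 3 values per condition without library names. They are numbered 1 to 3 by their place in the table, and no value can be tied to a library.

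U5-52K is a protein of the U5 snRNP, the particle that holds the exon ends together while the spliceosome joins them, and it is absent from the tri-snRNP, which forms before the spliceosome is activated. A cassette exon is one that some transcripts contain and others leave out. When its length is not a multiple of 3, skipping within the coding sequence changes every codon after the junction, and a stop codon is usually met soon after. Transcripts whose stop lies well before the last exon junction are typical substrates of nonsense-mediated decay (NMD), so the form with the shifted frame can be removed after splicing. Some genes use this the other way round and carry a so-called poison exon, whose inclusion brings the stop. In these data an early stop is one more than 50 bases before the last junction of the transcript.

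The sequences that follow show what leaving out or including an exon does to the reading frame, for the called coding exons whose consequence is plainest. All are given in the sense of the mRNA, from GENCODE M21 transcripts of GRCm38, with the exon first and its last 3 bases in capitals. Cd200 encodes a membrane glycoprotein that binds the inhibitory receptor CD200R on myeloid cells. Its member is exon 2 of 6, 82 bases at chr16:45400222-45400303 on the minus strand. The skipped form is printed from 12 bases before the new junction to the first stop codon in the shifted frame, the stop in capitals, and this holds for the other skipped forms too.
Cd200 exon 2: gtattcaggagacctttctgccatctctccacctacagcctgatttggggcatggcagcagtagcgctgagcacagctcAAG
Cd200 skipped form: atgggcagtctgtggaagtggTGA
The stop comes 9 bases after the junction, so that 7 codons of 269 remain.

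Dcp1b encodes a cofactor of the enzyme that removes the mRNA cap, and its member is exon 2 of 9, 41 bases at chr6:119180065-119180105 on the plus strand. Without it the frame ends 36 bases after the junction, with 62 of 545 codons kept.
Dcp1b exon 2: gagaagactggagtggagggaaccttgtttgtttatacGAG
Dcp1b skipped form: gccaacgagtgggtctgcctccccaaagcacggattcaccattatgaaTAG
Poc5, a gene of a centriole protein, has its member in exon 4 of 13, 118 bases at chr13:96393227-96393344 on the plus strand, and skipping leaves 30 of 558 codons.
Poc5 exon 4: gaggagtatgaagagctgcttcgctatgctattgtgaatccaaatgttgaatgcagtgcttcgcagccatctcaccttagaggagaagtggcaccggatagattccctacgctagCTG
Poc5 skipped form: acagaccttcaggaaataaccctgTAA
The member of 5730480H06Rik, a gene named only by its clone, is exon 5 of 9, 91 bases at chr5:48377075-48377165 on the plus strand. Its skipped form stops 4 bases after the junction and keeps 93 of 248 codons.
5730480H06Rik exon 5: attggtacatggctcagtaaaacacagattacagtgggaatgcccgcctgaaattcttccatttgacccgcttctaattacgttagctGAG
5730480H06Rik skipped form: cattccttgcagggtcTGA

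The opposite case is Clk4, which encodes a kinase that phosphorylates SR splicing factors. Its 59-base exon at chr11:51270537-51270595, on the plus strand, brings a stop when it is included. It is printed from its first base through that stop, which lies in the next exon and ends the frame after 76 codons. Here the capitals mark only the stop, and the exon itself ends at base 59.
Clk4 exon through the stop: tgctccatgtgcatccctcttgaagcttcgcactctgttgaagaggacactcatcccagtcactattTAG
Another case is a pair of neighbouring exons of Ubap2, the gene of a protein with a ubiquitin-associated domain. Exon 11 of 29 has 68 bases at chr4:41216566-41216633 and exon 12 has 190 bases at chr4:41211705-41211894, both on the minus strand.
Ubap2 exon 11: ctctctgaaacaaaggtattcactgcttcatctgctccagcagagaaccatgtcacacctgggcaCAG
Ubap2 exon 12: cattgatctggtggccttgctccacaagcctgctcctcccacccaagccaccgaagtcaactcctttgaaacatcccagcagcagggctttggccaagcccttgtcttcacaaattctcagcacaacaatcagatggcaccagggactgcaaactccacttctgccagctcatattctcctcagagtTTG
Each breaks the frame alone, but the skipping junction of both events joins exon 10 to exon 13, leaving out 258 bases, a multiple of 3.

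Reads in genes ranged from 69981159 to 82286366 in cKO libraries and from 56995121 to 75606222 in Control libraries. Cd2bp2, which encodes U5-52K, had normalized counts of 884, 874 and 738 in cKO libraries and 2624, 2602 and 2612 in Control libraries (log2 fold change -1.65, limma adjusted p = 0.00137), summed over the whole gene. The 6 defining genes of CD4+ T cells were present in every library, with a summed normalized count of 351454 to 377840 in cKO and 374931 to 439256 in Control. The 4 genes of myeloid cells summed to 2505 to 13986 in cKO, highest in KO_7.8, and 1587 to 3171 in Control. The 4 of B cells summed to 2960 to 5629 in cKO and 6763 to 9733 in Control, and the 2 of CD8+ T cells to 614 to 916 in cKO and 710 to 1571 in Control. The 2 of NK cells summed to 2711 to 3796 in cKO and 1937 to 2808 in Control, and 2 measured erythroid genes of 3 listed to 178 to 1776 in cKO and 90.5 to 2360 in Control. None of these markers was at 0 in all libraries, and their part in the splicing and expression differences was not tested. In bulk RNA, fewer cells of a type and less RNA per cell cannot be told apart.

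Most frame-breaking exons differed little between the conditions, and the few that passed the test were nearly all less included in the cKO. Inclusion was lower in cKO than in Control in 513 of the 934 events and higher in 421, with a median difference of -1.04 percentage points and quartiles of -5.58 and 2.95 points. The median over all 39173 tested events was -0.18 points, and over the 5206 tested events of any length and intron size with a Control inclusion of 10 to 95% it was -1.38 points. An event was called at a false discovery rate (FDR) under 0.01 and a difference of at least 10 points, from a quasi-binomial model of inclusion against skipping reads adjusted over all tested events. By this rule 16 members (1.71% of 934) were called less included and 1 (0.107%) more included, 1.82% together. Of all tested events, 0.403% were called less and 0.0893% more included. Within the same range of Control inclusion the shares were 2.52% and 0.519%, and 3.03% together, so that the members' shares lay below this background in both directions. The difference was not tested.

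All 3 cKO values lay below all 3 Control values in 128 members (13.7%) and above them in 58 (6.21%). Over all tested events these shares were 8.61% and 2.19%, and in the range of Control inclusion of the members 17.0% and 6.92%. Taken 1 event per exon, that with most reads, 459 of 848 exons were lower and 389 higher, with a median of -0.90 points. Relative to the Control mean of each exon, the 3 cKO values had medians of 0.26, -1.21 and -0.61 points and the 3 Control values of -0.05, 0.23 and -0.07 points. Over the whole set cKO value 1 thus had a median slightly above Control, unlike the other cKO values. The members share material: 69 exons occur in more than 1 event, up to 7, and 109 events lie on 53 skipping junctions that are common to several member exons.

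**Figure D1:**
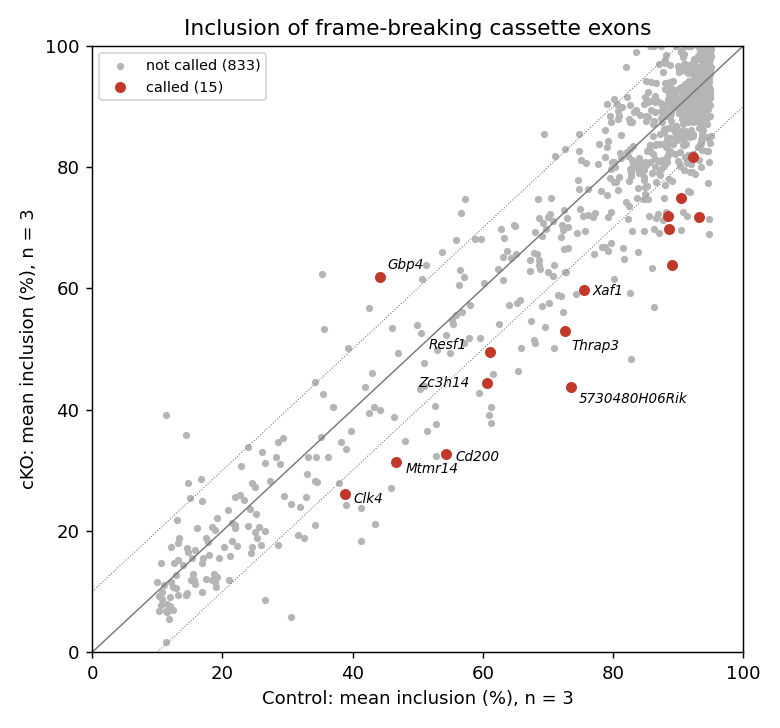
Mean inclusion (%) in cKO (vertical axis) against Control (horizontal axis) for the 848 frame-breaking exons, 1 event per exon, with the 15 called exons in red, a solid line at equal inclusion and dotted lines 10 points to either side. The 14 called exons of lower inclusion lie below the diagonal and Gbp4 lies above it, while most exons crowd near the upper right end.

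The exons were mostly included, with a median inclusion of 85.4% in cKO and 88.2% in Control. Among the 570 exons with a Control inclusion of 80 to 95%, 288 were lower and 282 higher in cKO (median -0.07 points), with 6 called lower. Among the 137 between 50 and 80%, 85 were lower (median -2.60 points), with 6 called lower, and among the 141 from 10 to 50%, 86 were lower (median -2.31 points), with 2 called lower and 1 higher. Cassette exons of the same length and intron range but with a length divisible by 3, which keep the frame, had medians of -1.09, -4.79 and -2.30 points in these ranges. Of those 647 exons, 26 were called lower and 2 higher (4.33% together), and 397 were lower by sign. In the same order of ranges, 2.10, 7.63 and 6.04% of them were called, against 1.05, 4.38 and 2.13% of the frame-breaking exons. Over all 848 frame-breaking exons 1.77% were called, and 3.03% of all tested events with a Control inclusion of 10 to 95%. The difference between both kinds of exon was not tested. Control inclusion differed between them, with a median of 88.2% in the frame-breaking and 80.9% in the frame-preserving exons. Depth differed too, with a median of 98.8 Control reads in the former and 116 in the latter.

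Called exons whose skipping gives an early stop came from 6 genes, and all were less included in the cKO. Exon 5 of 5730480H06Rik had an inclusion of 40.8, 47.2 and 43.2% in cKO and 76.1, 78.1 and 66.5% in Control. The groups were far apart, and the difference of -29.9 points (standard error 4.03 from the spread of the 3 values per group, FDR 0.00422) was the widest among the called exons. A second event of this exon, with 22.7 mean reads per condition, had 94.9% in cKO and 92.7% in Control and was not called. Exon 2 of Cd200 was included in 26.4, 35 and 36.6% in cKO and 55.7, 51.1 and 56.3% in Control. The full-length form was thus the minor form of this event in all cKO values and the major one in all Control values (-21.7 points, standard error 3.56, FDR 1.48e-06). The 41-base exon of Dcp1b had 68.0, 71.8 and 69.8% in cKO and 91.3, 86.8 and 87.6% in Control (-18.7 points, standard error 1.76, FDR 0.000493), with little spread in either group. An event of the same exon with a more distant downstream exon, and thus outside the intron range, had 98.1% in cKO and 100% in Control and was not called.

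The 47-base exon of Tmem241, the gene of a transmembrane protein, had 69.0, 76.1 and 70.9% in cKO and 84.3, 88.1 and 93.1% in Control (-16.5 points, FDR 0.00442). Its other tested events lie outside the intron range, on 32.3 to 40.7 mean reads. They had 95.1, 88.6 and 97.9% in cKO and 100, 85.5 and 90.2% in Control, and none was called. Exon 4 of Poc5 had 73.1, 72.0 and 79.9% in cKO and 91.7, 91.2 and 88.3% in Control (-15.4 points, FDR 0.00976), just inside the FDR limit. A 68-base exon of Slc35d2, which encodes a nucleotide sugar transporter of the Golgi, at chr13:64118416-64118483 on the minus strand, had 78.4, 82.7 and 83.9% in cKO and 92.0, 91.4 and 93.3% in Control (-10.6 points, FDR 0.0043), just inside the limit of 10 points. In the called events of all 6 exons every cKO value was below every Control value. The calls were made from these same values, so this separation adds no support to them. The stops in Tmem241 and Slc35d2 come 81 and 144 bases after the junction, and leave 51 of 297 and 129 of 283 codons.

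In 4 called exons the skipping junction left out a second exon as well, and the frame was kept. For Ubap2 exon 11, inclusion was 67.8, 65.0 and 58.7% in cKO and 83.6, 91.9 and 92.0% in Control (-25.3 points, standard error 3.86, FDR 0.00441). Exon 12 had 77.3, 70.6 and 67.3% in cKO and 89.0, 95.6 and 95.2% in Control (-21.5 points, FDR 0.000217). Both values rest on the same skipping reads, 16, 37 and 55 in cKO and 10, 6 and 3 in Control, so they are 1 observation of the joint junction. When either exon was scored against skipping it alone, inclusion was 98.2% in cKO and 98.7% in Control for exon 11 and 92.7% and 96.3% for exon 12, and neither was called.

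Zc3h14 encodes a zinc finger protein that binds poly(A) tails. Its 160-base exon at chr12:98779108-98779267 had an inclusion of 43.4, 45.2 and 44.6% in cKO and 57.8, 61.7 and 62.3% in Control (-16.2 points, FDR 0.00567). The junction also leaves out the neighbouring 233-base exon, 393 bases together, and that exon had 40.7, 36.4 and 36.0% in cKO and 53.9, 51.0 and 53.6% in Control, with an FDR of 0.0107 just outside the limit. Scored for skipping alone, the 160-base exon had 97.3% in cKO and 98.2% in Control, as in Ubap2. Xaf1, an interferon-induced gene whose product antagonizes the caspase inhibitor XIAP, had 58.5, 59.1 and 61.8% in cKO and 73.0, 77.1 and 76.3% in Control (-15.7 points, FDR 0.00063) for its 89-base exon at chr11:72306564-72306652, with 285 bases left out together. A second member event of the Xaf1 exon had 81.3% in cKO and 92.6% in Control (FDR 0.557) and was not called. Members left out with a neighbour in this way thus go against the name frame-breaking at the junction that was measured. Of all 848 exons, 143 were left out together with neighbours at the junction of their event, 130 of them from exons that are all coding, and in 64 of these 130 the bases left out are a multiple of 3.

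Clk4 was the called exon whose inclusion brings the early stop. Its inclusion was 25.8, 25.4 and 26.9% in cKO and 37.5, 39.8 and 39.0% in Control (-12.7 points, standard error 0.82, FDR 0.000269). Both groups were tight, and the form without the exon, which keeps the frame, was the major form of this event in all 6 values. From another upstream exon the same exon had 89.0% in cKO and 94.0% in Control (FDR 0.70), so the difference was called at 1 of its member junctions.

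The remaining called exons lie outside the coding sequence in the annotation used, are left out together with such an exon, or cannot be placed in a frame. Thrap3 encodes a protein rich in arginine and serine that acts in mRNA processing, and its 88-base exon lies at chr4:126194317-126194404 on the minus strand. Its inclusion was 52.4, 54.4 and 51.9% in cKO and 72.4, 70.4 and 74.9% in Control, with 1460 mean reads in cKO and 1381 in Control, and its difference of -19.7 points (standard error 1.51) had the smallest FDR among the members (1.46e-13). The junction leaves out a second exon as well, 195 bases together, and not both exons lie in the coding sequence. In its 4 other tested events, which join other exons, inclusion was 97.9 to 99.7% in cKO and at least 99% in Control, and none was called. Resf1, a gene of retroelement silencing, had a 74-base exon of the 5′ untranslated region with 51.0, 45.9 and 51.5% in cKO and 59.7, 62.5 and 61.3% in Control (-11.7 points, FDR 0.00277). Of its 3 other member events, 1 was called, at 53.7% in cKO and 70.5% in Control. The others were not, at 88.7% in cKO and 89.4% in Control (FDR 0.92) and at 86.1% in cKO and 92.3% in Control (FDR 0.46).

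Ndufs1, the gene of a subunit of respiratory complex I, has a 104-base exon in the 5′ untranslated region that was called in an event other than its most-read one, at 29.5% in cKO and 47.3% in Control (FDR 0.00708). In the most-read event it had 27.7, 17.3 and 27.8% in cKO and 39.5, 38.2 and 39.1% in Control, without overlap but with an FDR of 0.0136. Mtmr14, a phosphoinositide phosphatase gene, had a 115-base exon with 32.4, 31.7 and 29.8% in cKO and 43.7, 51.7 and 44.8% in Control (-15.4 points, FDR 0.00218). It shares its end and its skipping junction with a 156-base version of the exon, which keeps the frame and was called at 48.5% in cKO and 63.6% in Control (FDR 0.000381). Both events rest on the same skipping reads, 134, 219 and 247 in cKO and 99, 99 and 91 in Control, so they are not independent observations.

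Gbp4, an interferon-inducible GTPase gene, gave the only called rise. Its 236-base exon, which holds the start codon, had an inclusion of 54.4, 80.5 and 51.0% in cKO and 38.9, 34.2 and 59.5% in Control (17.8 points, standard error 12.1, FDR 0.00131). Control value 3 lay above 2 of the 3 cKO values, so Gbp4 was the 1 called exon of 15 whose groups overlapped. A 207-base version with the same skipping junction had 65.5% in cKO and 69.4% in Control and was not called.

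**Figure D2:**
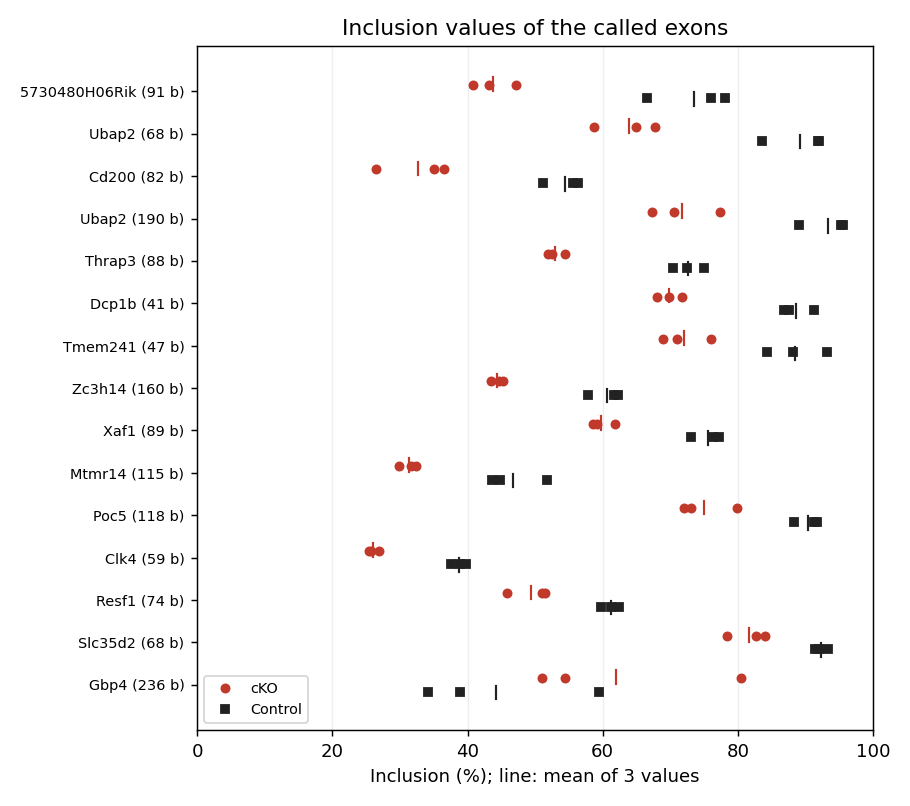
Inclusion (%, horizontal axis) of the 15 called exons, one row each with its length in bases, with the 3 cKO values as red circles above the 3 Control values as black squares and short lines at the means. All cKO values lie below all Control values in 14 exons, and only the values of Gbp4 overlap. The exons were chosen by a test of these same values, which favours such separation.

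The calls depend on sharing the spread between events and on single values. With the dispersion of each event taken alone, an alternative chosen after seeing the data, or with limma on log2 ratios of inclusion to skipping, no member and no other tested event was called in either direction, and at an unadjusted p under 0.05 these tests had 70 and 64 members lower and 20 and 45 higher. Leaving out 1 value at a time, 5 to 12 members were called less included, with the fewest without Control value 2 and 9, 10 and 10 without Control value 1, cKO value 3 and Control value 3. Thrap3, Cd200 and Clk4 kept the call in all 6 of these fits. Zc3h14 lost it in all 6, with an FDR of 0.0125 to 0.075. Poc5 lost it in every fit but that without cKO value 3. The call of 5730480H06Rik was lost without cKO value 1 or 3 or Control value 1 or 2, that of Slc35d2 without cKO value 1 or any Control value, and those of Tmem241 and Ubap2 exon 11 without cKO value 3 or Control value 2 or 3. Ubap2 exon 12 and Mtmr14 lost it without cKO value 3 or Control value 2, Resf1 without cKO value 2 or Control value 2, Dcp1b without Control value 1 (FDR 0.0121) and Xaf1 without Control value 3 (FDR 0.0104). Gbp4, whose difference ranged from 8.5 to 25.4 points, lost it without cKO value 2 or Control value 1 or 2.

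Several exons passed the FDR but differed by less than 10 points. Ldhb, which encodes a subunit of lactate dehydrogenase, had a 124-base exon with 83.7, 84.1 and 85.9% in cKO and 94.3, 93.6 and 92.9% in Control (-9.04 points, FDR 2.79e-07). Its groups were narrow and well apart, with 1507 mean reads in cKO and 1517 in Control. Pigx, a gene of glycosylphosphatidylinositol anchor synthesis, followed with -6.93 points (FDR 0.000145), and the geranylgeranyl diphosphate synthase gene Ggps1 with -4.96 points (FDR 0.00334), at only 6.59% inclusion in cKO and 11.5% in Control. In Pnisr, which encodes an arginine- and serine-rich nuclear protein, a 224-base exon was included in 100% in all 3 cKO values and in 93.2, 91.1 and 90.2% in Control (8.51 points, FDR 0.00072). By contrast, 134 exons differed by at least 10 points, 102 lower and 32 higher, and 119 of them were not called. These had a median of 55.3 Control reads, against 323 in the called exons. Some were deeply read, such as the exons of Cyld, Qrich1 and Mzt1 described below, and the part of depth in the missing calls was not tested.

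The exons were grouped by what the annotation gives for the frame when they are left out or included. Skipping gives an early stop in 312 exons, of which 145 were lower and 167 higher in cKO, with a median of 0.35 points. In this group the cKO values lay wholly below Control in 31 exons (9.94%) and wholly above in 18 (5.77%), and 6 were called (1.92%). Of all tested events with a Control inclusion of 10 to 95%, 17.0% lay wholly below and 6.92% wholly above, and 3.03% were called. In the 312 exons the stop is met a median of 33.5 bases after the junction and within 60 bases in 220 exons, and a median of 157 of 557 codons is kept. Skipping gives a stop that is not early in 101 exons, with 61 lower (median -1.75 points), 18 wholly below (17.8%) and 5 wholly above Control (4.95%), and none called. These shares stand beside the same 17.0% and 6.92%. Ldhb belongs to the group of 101 exons.

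Inclusion gives an early stop in 40 exons, and 31 of these were lower in cKO, with a median of -3.56 points. In 11 (27.5%) the cKO values lay wholly below Control and in 1 (2.5%) wholly above. Beside these stand 17.0% and 6.92% of all tested events with a Control inclusion of 10 to 95%. Clk4 was called, 1 of the 40 (2.5%), beside 3.03% of those events. The stop lies within the exon itself in 28 of the 40. For 32 the transcript chosen to number the exon is annotated as an NMD substrate, and other transcripts with the exon were not checked. These exons start from a low level, with a median inclusion of 22.5% in cKO and 22.4% in Control, against 89.8% and 91.1% for exons whose skipping gives the stop. Over the common range of 10 to 80% Control inclusion, 27 of 36 exons with a stop on inclusion were lower (median -3.39 points), against 24 of 46 exons with an early stop on skipping (median -0.72 points). The starting level still differed within this range, with a median Control inclusion of 21.1% in the former and 68.5% in the latter. The difference between both groups was not tested.

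Of the other groups, 130 coding exons that were left out with neighbours had a median of -1.15 points with 4 called (3.08%). The 97 exons of 5′ untranslated regions had -1.38 points with 1 called (1.03%). For the 52 exons that hold a start codon the median was -0.83 points, with Gbp4 called (1.92%). Of all 848 exons, 1.77% were called. The 58 exons placed in noncoding transcripts of coding genes had a median of 1.07 points and the 20 in noncoding genes -3.93 points, and none was called. The last groups were small, 15 exons with no annotated start codon (median -6.93 points, with Mtmr14), 3 with a late stop on inclusion, 3 without a stop and 4 that could not be placed. In a further 13, left out with neighbours, not all the exons left out lie in the coding sequence (median 0.41 points, with Thrap3).

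**Figure D3:**
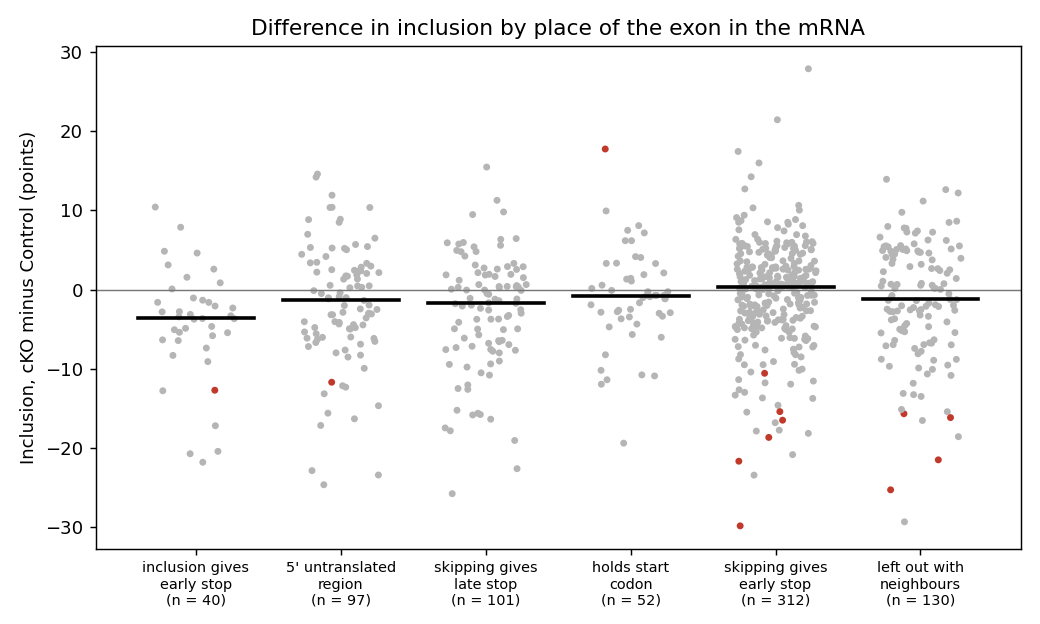
Difference in inclusion (percentage points, cKO minus Control) of each exon in 6 groups by its place in the mRNA, 1 point per exon, called exons in red and black lines at the medians. The 6 medians lie between -3.56 points for exons whose inclusion gives an early stop and 0.35 points for exons whose skipping does, and most exons of every group spread around 0.

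Among regulators of RNA processing, members occurred in 13 of 82 listed splicing genes. Of their 17 exons, 12 were lower (median -2.33 points) and 3 were called lower (17.6%), those of Thrap3, Clk4 and Zc3h14, against 1.77% called of all 848 exons. They had a median of 483 Control reads, against 98.8 for all 848 exons. Their median Control inclusion was 60.6%, against 88.2%. The part of depth and starting level in these calls was not tested. This list and those below were chosen with earlier results of these data known, so their shares of calls are no test of the lists. Tra2b, an SR-like splicing regulator with a known poison exon, has the longest member, a 397-base exon whose inclusion gives an early stop. It had 9.58, 11.7 and 10.9% in cKO and 11.6, 8.87 and 16.7% in Control, so that the groups overlapped. Of 25 NMD factors, 2 had a member and both were lower: Dcp1b, and Dhx34, an RNA helicase gene, with 87.6% in cKO and 92.6% in Control (FDR 0.699).

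Genes of T cell receptors and signaling held 7 member exons in 6 of 98 genes. Of these exons 6 were lower, with a median of -12.6 points. Their median depth was 50 Control reads, against 98.8 for all 848 exons, and their median Control standard deviation 9.76 points, against 4.85. Cd200 was called, 1 of the 7 exons (14.3%), against 1.77% of all 848. A 71-base exon of Il15ra, the alpha chain of the interleukin 15 receptor, had 8.66, 2.80 and 14.5% in cKO and 25.9, 16.4 and 37.2% in Control (-17.8 points, FDR 0.263) at 53.7 mean reads in cKO and 45.0 in Control. Malt1, a paracaspase of antigen receptor signaling, had an exon with 9.09, 15.3 and 11.2% in cKO and 16.8, 22.3 and 23.7% in Control (-9.11 points, FDR 0.12), and inclusion there gives an early stop. Ifnar2, a chain of the type I interferon receptor, had 86.7, 85.8 and 86.1% in cKO and 96.3, 93.3 and 91.8% in Control (-7.59 points, FDR 0.188). In each of these 3 genes all cKO values lay below all Control values, and none passed the test. They were named for a small p within the list, which favours separated groups. Of all 7 exons, 4 (57.1%) lay wholly below Control, beside 17.0% of all tested events with a Control inclusion of 10 to 95%.

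Of 50 listed apoptosis genes, 8 held 11 exons, 8 of them lower (median -3.67 points). Xaf1 was called, 1 of the 11 exons (9.09%), against 1.77% of all 848. Cyld, a deubiquitinase gene, had a 380-base exon with 65.8, 66.8 and 67.9% in cKO and 75.3, 79.4 and 81.4% in Control (-11.8 points, FDR 0.0172), where the junction leaves out 546 bases and keeps the frame. Birc2, which encodes the inhibitor of apoptosis cIAP1, had -5.06 points (FDR 0.178), and Traf6, a signaling adaptor and ubiquitin ligase gene, -3.59 points with overlapping groups (FDR 0.699). Of 63 genes of p53, DNA damage and repair, 11 held 15 exons, 6 lower and 9 higher (median 0.99 points), none called. Dmtf1, a transcription factor gene, had a 263-base exon with an early stop on inclusion at 30.0, 39.8 and 47.5% in cKO and 55.4, 60.0 and 67.3% in Control (-21.8 points, FDR 0.0348), and a 104-base version, which shares the genomic start and the skipping reads and so is not an independent observation, had -20.7 points (FDR 0.0829). A pair of exons of Zgrf1, a gene of DNA repair, were at 100% in all cKO values and at 87.3 and 85.8% in Control, on 23.0 to 42.3 mean reads, and neither passed (FDR 0.415 and 0.694).

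Centrosome and cilium genes held 12 exons in 10 of 71 genes, 4 lower and 8 higher (median 0.95 points). Poc5 was called, 1 of the 12 exons (8.33%), against 1.77% of all 848. Mzt1, a gamma-tubulin complex gene, had 82.0, 77.6 and 82.7% in cKO and 92.6, 90.7 and 90.6% in Control (-10.5 points, FDR 0.018). Cep63, a centrosome gene, held a rarely used 38-base exon with 3.21, 4.89 and 9.32% in cKO and 36.3, 20.4 and 34.7% in Control (-24.7 points), but on 31 mean reads in cKO and 26.7 in Control and with an FDR of 0.201, and a second exon at 4.69 points (FDR 0.699). Chromatin regulators held 21 exons in 14 of 118 genes, 13 lower (median -3.68 points). Resf1 was called, 1 of the 21 exons (4.76%), against 1.77% of all 848. In Qrich1, a gene of a glutamine-rich protein, a 124-base exon of the 5′ untranslated region had 46.1, 48.8 and 38.8% in cKO and 37.3, 36.5 and 28.7% in Control (10.4 points, FDR 0.0313), without overlap. Mtf2, a Polycomb-associated gene, had -16.2 points (FDR 0.11) and Phf21a, the gene of a histone H3 reader, -12.2 points (FDR 0.171).

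Of 72 mitochondrial genes 3 held 4 exons, 3 lower (median -2.02 points). Apart from Ndufs1 these were Ndufa9 of complex I, with exons at -2.63 and -1.41 points, and the ATP synthase gene Atp5j at 2.01 points (FDR 0.699, 0.699 and 0.908). Both Ndufa9 exons rest on the same skipping reads and are left out together, 171 bases, so they are not independent observations. Genes named Zfp, for zinc finger protein, held 28 exons in 22 genes, 11 lower and 17 higher (median 0.80 points), none called. The lowest p among them belonged to Zfp28 with -16.4 points (FDR 0.295), Zfp410 with -6.78 points (FDR 0.575) and a pair of overlapping exons of Zfp346 with -22.6 and -12.1 points (FDR 0.663 and 0.699). The Zfp346 pair shares its skipping reads and so is not independent either. Of 11 genes examined by RT-qPCR in the study, Sp100, an interferon-induced nuclear body gene, held members. They are not among the 17 exons of the Sp100 transcript that the study lists for its RT-qPCR, and so are other exons than the one assayed. Its 116-base exon had 91.1, 92.0 and 90.2% in cKO and 93.2, 92.6 and 92.6% in Control (-1.71 points, FDR 0.642), and its 118-base exon -2.53 points with groups that overlapped widely (FDR 0.799).

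The features of the called exons were compared with those of all members as a description, with no test. The called exons were 41 to 236 bases long, within the 31 to 397 bases of all members, with a median of 88 bases against 118. Their flanking introns ranged from 1147 to 8552 bases. The last exon bases were AG, the usual end before a 5′ splice site, in 9 of the 15 called exons, in 55.0% of the 844 members with sequence and in 56.9% of 645 frame-preserving exons. Of the exons printed above, those of 5730480H06Rik, Cd200, Dcp1b, Clk4 and Ubap2 exon 11 end in AG, and Poc5 and Ubap2 exon 12 end in TG. Median GC content was 47.9% in called members, 47.7% in all members and 49.1% in frame-preserving exons. A length that leaves a remainder of 1 when divided by 3 occurred in 47.8% of members and in 7 of the 15 called exons.

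Few host genes passed the test of gene level. Of 694 host genes, 681 had enough reads for the expression test (limma on log2 of the normalized count + 1, adjusted over 11001 genes), and at an adjusted p under 0.05, 2 were higher and 3 lower in cKO (0.734%). Over all tested genes 0.673% were higher and 0.300% lower. The median log2 fold change was -0.06 over the host genes and 0.01 over all tested genes. The 2 higher genes were Dglucy, the D-glutamate cyclase gene, with normalized counts of 9140, 7273 and 8074 in cKO and 2487, 2252 and 2879 in Control (log2 fold change 1.69), and the long noncoding RNA Pvt1 (0.96). The 3 lower ones were the integrin gene Itga6 (-0.63), the noncoding 1300002E11Rik (-0.81) and Tmie, a gene of hair cell mechanotransduction (-1.11). These 5 were named after their values were seen, and none of their member exons was called. DESeq2 on the recovered whole reads called 21 host genes higher (3.08%) and 38 lower (5.58%), against 4.44% higher and 3.98% lower of all tested genes. In limma, 120 host genes (17.6%) had an unadjusted p under 0.05, against 16.7% of all tested genes, and limma called 1 higher and none lower when any library but KO_7.8 was left out, and 1 higher and 3 lower without KO_7.8.

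None of the 15 host genes of called exons, Ndufs1 included, was called for expression by limma. DESeq2 results for these genes are not given here. Their log2 fold changes ran between -0.29 for Tmem241 and 0.33 for Resf1, the smallest adjusted p was 0.235, and 3 had an unadjusted p under 0.05 in limma. Cd200, whose full-length form was the minor one in cKO, had a log2 fold change of -0.13 (limma adjusted p = 0.628), Dcp1b of -0.12 (0.782), Poc5 of -0.08 (0.85) and 5730480H06Rik of 0.06 (0.905). Over the 289 tested host genes of exons whose skipping gives an early stop the median log2 fold change was -0.08 with 1 called (51 at an unadjusted p under 0.05), and over the 37 of exons whose inclusion does so it was -0.04 with none called (3 at an unadjusted p under 0.05).

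**Figure D4:**
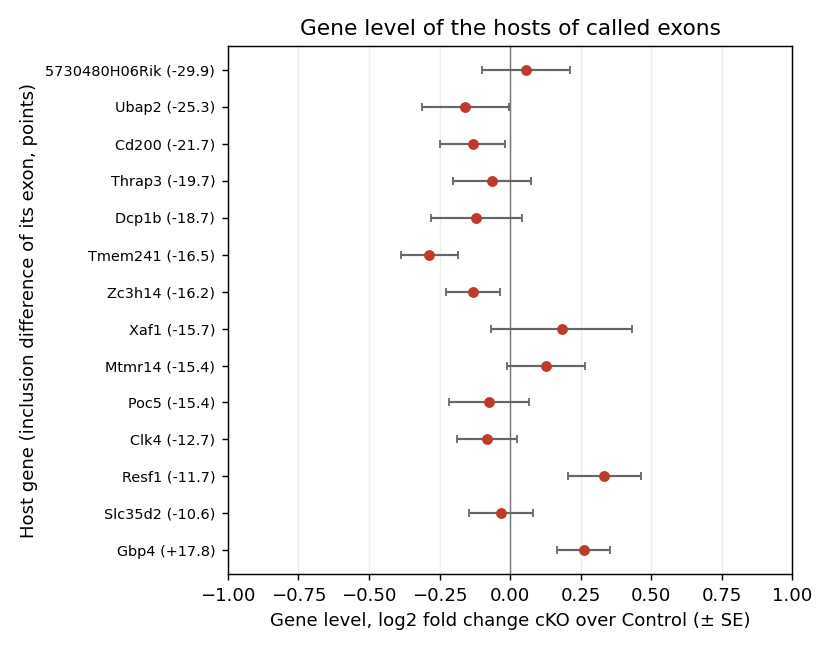
Gene level (log2 fold change of cKO over Control, points with standard errors) of the 14 genes with a called exon, ordered by the difference in inclusion given beside each name. All values lie between -0.29 and 0.33, on both sides of 0, and none passed the limma test.

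Retention of the introns beside the members could be read in few cases. Of 2796 retained intron events, 14 are exactly a flanking intron of a member, and 10 of these had enough reads. None was called, none had an unadjusted p under 0.05 in the quasi-binomial test and 1 had one with limma, with differences of -2.76 to 2.03 points and a smallest FDR of 0.726. Over all 2206 tested retained introns, 0.181% were called in either direction.

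The limits of the rule cut through a continuous range. Nearest to the lower limit of Control inclusion were Creb1 at 10.01% inside, with 11.6% in cKO, and Thoc7 at 9.97% outside, with 7.54% in cKO. At the upper limit were Xpo5 at 94.99% inside, with 96.6% in cKO, and 4933434E20Rik at 95.1% outside, with 94.5% in cKO. For exon length they were Hdhd5 with 31 bases inside (-6.17 points) and Dhx30 with 29 outside (2.91 points), and Tra2b with 397 inside (-1.63 points) and Zfp326 with 406 outside (0.74 points). For intron length they were Cenpc1 with 1003 bases inside (2.58 points) and Lrrc40 with 997 outside (-3.57 points), and Phf20 with 9970 inside (5.51 points) and Clec4a4 with 10027 outside (-8.48 points). The member with fewest reads was in Slc38a6, with 21.3 mean reads in cKO and 20 in Control (2.36 points). None of these events was called.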

How the data were processed

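Members and gene lists were chosen with earlier results of these data known. Reads were trimmed (cutadapt), aligned to GRCm38/mm10 (STAR) and counted per splicing event (rMATS) by the authors. The annotation release behind the alignment and the counts, and the use of strand in counting, are not given in the sources used here, so antisense and overlapping genes are not separated. Their deposited splicing tables hold inclusion and skipping counts per event, and the 3 values of a cell carry no library name. For expression, the authors deposited a signal per gene, the read count from featureCounts over a DESeq2 size factor, and 100% of values of each library were whole reads within 0.01 reads. Columns of the authors' own comparisons (p-values, FDR, fold changes) were not used.

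Of 46394 skipped exon events, each of the 39173 averaging 20 or more reads per condition was fitted with a quasi-binomial model, the dispersion moderated with limma 3.58.1 (R 4.3.3; prior 2.40 from 7827 events averaging 5 or more reads of the rarer form) with a floor of 1, and adjusted by Benjamini-Hochberg. Expression was tested with limma with a trend on log2(normalized count + 1), over 11001 named genes averaging 100 or more in a condition, and this scale understates changes of low genes. On whole reads, edgeR 4.0.16 called 112 genes and DESeq2 1.42.0 called 926. Groups are 3 cKO and 3 Control mice, and an exact test of 3 against 3 values cannot go below p = 0.1. The splicing p-values rest mostly on spread pooled over other events, since the prior has 66.9 degrees of freedom. With limma, the expression p-values also share spread between genes. Alternatives changed the prior, floor, test, read minimum, thresholds, filter, pseudocount and scaling, or left out 1 value.

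Exons were placed in GENCODE M21 transcripts of GRCm38. Named were, 1 event per exon, called exons, members in genes tested by RT-qPCR, up to 4 members of smallest p per list, those nearest to each limit, called flanking introns and called host genes of called exons; other exons named (Ldhb, Pigx, Ggps1) were chosen after their values were seen. Figures used Python 3.11.15 and matplotlib 3.10.9.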

Additional observations from a re-analysis of the deposited data

How the results depend on the processing

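Of the members, 16 were called less and 1 more included in cKO. The counts were 24 and 2 with the dispersion prior taken from all events, 24 and 2 at an FDR under 0.05, 18 and 2 at 5 points, 4 and 0 at 20 points, and 14 and 1 with 1 event per exon. A minimum of 10 or 50 reads and no floor left them at 16 and 1. No moderation, added after seeing the data, and limma on log2 ratios both gave 0 and 0. Leaving out 1 value gave 5 to 12 lower and 0 to 2 higher. Host genes were called higher and lower in 2 and 3 cases, in 1 and 3 with 100 or more required in each condition or with no filter, in 2 and 4 after quantile normalization, in 2 and 3 with edgeR or a pseudocount of 10, in 21 and 38 with DESeq2, and in 1 to 1 and 0 to 3 without 1 library. No flanking intron was called under any alternative run. Among the named exons, 9 values changed sign, none of an exon that was called. The difference of the 118-base exon of Sp100 was 4.96 points without cKO value 3 and 3.85 without Control value 2 (range without 1 value -11.1 to 4.96), that of Tra2b 0.54 without Control value 3 (-3.38 to 0.54), that of the 103-base exon of Ndufa9 0.025 without cKO value 3 (-2.15 to 0.025), that of Creb1 -0.34 without cKO value 2 and -1.98 without Control value 3 (-1.98 to 3.58), that of Atp5j -2.33 (to 6.95) and that of Slc38a6 -0.19 (to 4.42) without Control value 2, and that of Cenpc1 -0.49 (to 4.89) without Control value 1. The cause was not tested in any of these. No paired analysis was possible because the labels give the conditions no replicate numbers in common. The members' median depth of 105 reads in cKO and 93.0 in Control stands beside 360 in cKO and 323 in Control for the called exons, and the part of depth in the calls was not tested.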
